A study of Mus musculus with 8 samples.

Results

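The clustered histone genes are the replication-dependent genes of the core histones and of linker histone H1, and their chromatin accessibility was described in cultured mouse mammary tumor cells. They were taken as the protein-coding genes of GENCODE M21 whose symbols begin with Hist1h, Hist2h, Hist3h or Hist4h, which gave 67 of the 21755 protein-coding genes on chromosomes 1 to 19 and X. No measured value entered this choice. Of the 67 genes, 6 encode H1, 18 encode H2A, 18 encode H2B, 12 encode H3 and 13 encode H4. The genes lie in 5 stretches of mm10 (GRCm38). The Hist1 genes form a proximal run on chromosome 13 from 21715763 to 22043676 with 23 genes, and a distal run from 23531050 to 23934851 with 31 genes. The Hist2 cluster on chromosome 3, from 96219865 to 96270132, holds 10 genes. The Hist3 pair lies on chromosome 11 from 58948920 to 58956830, and Hist4h4 stands alone on chromosome 6 from 136801553 to 136804415.

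The cells came from tumors driven by the polyoma middle T oncogene (PyMT), a mouse model of breast cancer, in mice whose strain the labels give as FBV/N. WT cells and Lats1-CKO cells, in which the Hippo pathway kinase gene Lats1 was deleted in the epithelial compartment, were sorted into a luminal fraction (EpCAM-high, CD49f-high) and a basal-like fraction (EpCAM-low, CD49f-high) and briefly expanded in DMEM with serum. All 4 groups therefore carry the PyMT oncogene and were grown in culture. ATAC-seq, which marks open DNA by insertion of the Tn5 transposase, was done on 2 libraries of each group. The WT luminal libraries are named BM1 and BM5, those of WT basal-like cells BM2 and BM6. For Lats1-CKO cells, the luminal ones are BM3 and BM7 and the basal-like ones BM4 and BM8. How many mice or tumors stand behind the libraries is not given in the sources used here, so the p-values below measure the spread between these libraries.

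Each library is a list of peaks with a score and without read counts, so sequencing depth cannot be read from it. The lists hold 51497 to 99022 peaks, except BM3 with 14753. Values without BM3 are printed beside the comparisons between groups. A gene was counted as having a peak where a peak lay within 1 kb of one of its transcription start sites (TSSs). Such a peak, called a promoter peak below, need not cover the TSS. The level of a gene is the score percentile of its highest such peak among all peaks of that library, from 0 for no peak to 100 for the highest-scoring peak. Of the luminal markers looked up here, Krt8 had a promoter peak in 8 of 8 libraries, Krt18 in 5, being without one in BM3, BM4 and BM8, and Epcam in 6, being without one in BM4 and BM8. The Epcam percentiles were 88.0 and 66.0 in WT luminal and 66.1 and 22.5 in WT basal-like cells, and 65.0 and 74.4 in Lats1-CKO luminal cells. Krt8 was also higher in WT luminal (75.7 and 96.3) than in WT basal-like cells (65.5 and 31.4). In Lats1-CKO cells Krt8 overlapped, with 54.1 and 29.5 in luminal and 50.3 and 43.0 in basal-like libraries. Krt18 did not separate the WT populations (56.6 and 52.2 in luminal against 57.6 and 51.0 in basal-like libraries). Of the basal markers, Krt14 had a peak in 8 of 8 libraries, Krt5 in BM7 alone and Trp63 in none. Krt14 went against the labels in WT cells, with 71.6 and 56.2 in luminal and 52.6 and 17.9 in basal-like libraries. In Lats1-CKO cells it had 8.28 and 52.9 in luminal and 30.0 and 82.0 in basal-like libraries. Lats1 itself had a promoter peak in 7 of 8 libraries, all but BM3, which says nothing about a deletion inside the gene.

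Replication-dependent histone genes supply the histones that package newly copied DNA, and in cycling cells their transcription is switched on as S phase begins, from nuclear bodies that form on the Hist1 and Hist2 loci. H2A, H2B, H3 and H4 build the nucleosome core and H1 binds the linker DNA between nucleosomes. The genes are short and mostly without introns, their mRNAs end in a conserved stem-loop in place of a poly(A) tail, and H2A and H2B genes often stand head to head on a shared promoter. Each type is encoded by many copies. Translated from the longest annotated coding sequence, the 13 H4 genes gave 1 protein, the 12 H3 genes 3 proteins, the 18 H2A genes 9, the 18 H2B genes 12 and the 6 H1 genes 6. These counts depend on the annotation and include longer annotated products. Hist2h3c1 has 181 amino acids, against 136 for Hist1h3a. The H2B genes Hist1h2bp, Hist1h2bq and Hist1h2br have 138, 134 and 134, each from 2 coding exons, against 126 for Hist1h2bl.

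The sequence features that define the family were present in this gene set whether or not a peak was found. A perfect hairpin with a 6-base stem and a 4-base loop beginning TT was found within 100 bases after the stop codon in 63 of the 67 histone genes (94.0%), against 0.595% of 21513 other protein-coding genes. It began 22 to 59 bases after the stop codon, at a median of 31. The most frequent form stood in 41 genes of all types but H4, and the third most frequent in 8 genes, all H4. Both are printed as DNA, with the paired stem in capitals.
most frequent hairpin: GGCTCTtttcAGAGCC
most frequent H4 hairpin: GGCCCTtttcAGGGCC
The genes without such a hairpin in the window were Hist1h2an, Hist1h3g, Hist1h4a and Hist2h2be.

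Promoters were read from RefSeq's GRCm38.p6 genome as 250 bases before to 50 bases after the 5′ end of each gene, and 3 letter strings were searched on both strands. CCAAT, the string of the CCAAT box, was in 83.6% of histone promoters and in 38.9% of all protein-coding promoters. TATAAA, a string of the TATA box, was in 55.2% and 12.7%. The octamer ATTTGCAT, the string bound by octamer factors at H2B promoters, was in 22.4% and 1.59%, and within the family it was found in 8 of 18 H2B and 7 of 18 H2A promoters and in no H1, H3 or H4 promoter. CCAAT was in all 18 H2A and all 18 H2B promoters and in 4 of 13 H4 promoters. The windows of the 20 genes with a peak in every library and of the 29 genes with none both held these strings, with CCAAT in 18 and 26 of them, TATAAA in 9 and 18, and the octamer in 6 and 5. Median GC content was 44.8% and 46.3%. A match is only a match of letters and was not tested as a binding site.

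The promoters on which the later results turn are printed here, with every match of the 3 strings in capitals. The first is the shared promoter of Hist1h2ah and Hist1h2bk, the pair with the highest levels among H2A and H2B genes (chr13:22035569-22035868, plus strand, the 300 bases after the Hist1h2ah TSS). The second is the H3 gene Hist1h3g, which had the highest minimum over the 8 libraries (chr13:23535172-23535471, plus strand). The third is the linker histone gene Hist1h1c, the H1 gene with a peak in every library (chr13:23738558-23738857, plus strand). The fourth is another linker histone gene, Hist1h1b, which had no peak in any library (chr13:21780576-21780875, minus strand).
Hist1h2ah to Hist1h2bk: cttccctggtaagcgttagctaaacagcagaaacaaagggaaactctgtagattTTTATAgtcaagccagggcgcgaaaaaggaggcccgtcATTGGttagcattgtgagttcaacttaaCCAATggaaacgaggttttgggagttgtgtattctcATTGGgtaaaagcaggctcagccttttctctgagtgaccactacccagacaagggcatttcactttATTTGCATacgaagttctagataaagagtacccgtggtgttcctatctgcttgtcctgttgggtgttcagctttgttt
Hist1h3g: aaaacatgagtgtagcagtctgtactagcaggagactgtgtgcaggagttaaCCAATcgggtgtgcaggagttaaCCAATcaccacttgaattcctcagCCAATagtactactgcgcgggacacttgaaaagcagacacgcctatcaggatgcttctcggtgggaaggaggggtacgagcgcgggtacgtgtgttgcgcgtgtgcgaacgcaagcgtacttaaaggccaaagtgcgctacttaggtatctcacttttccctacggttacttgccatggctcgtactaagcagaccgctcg
Hist1h1c: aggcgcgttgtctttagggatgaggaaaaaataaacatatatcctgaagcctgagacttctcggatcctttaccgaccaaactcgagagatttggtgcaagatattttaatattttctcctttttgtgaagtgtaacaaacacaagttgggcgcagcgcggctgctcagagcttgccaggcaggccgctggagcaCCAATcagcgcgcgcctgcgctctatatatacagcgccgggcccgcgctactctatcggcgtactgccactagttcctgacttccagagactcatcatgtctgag
Hist1h1b: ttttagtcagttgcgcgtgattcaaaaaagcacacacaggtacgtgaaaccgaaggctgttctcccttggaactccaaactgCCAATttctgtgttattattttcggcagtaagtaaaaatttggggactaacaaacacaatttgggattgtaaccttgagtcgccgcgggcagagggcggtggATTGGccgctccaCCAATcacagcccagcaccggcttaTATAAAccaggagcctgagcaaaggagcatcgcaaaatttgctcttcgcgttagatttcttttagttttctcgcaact
Hist1h1b, without a peak, carried 3 CCAAT strings and 1 TATAAA string in its window, and Hist1h1c, with a peak in every library, carried 1 CCAAT string and no TATAAA string.

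Between 30 and 37 of the 67 histone genes had a promoter peak in each library but BM3, which had 22. The WT luminal libraries BM1 and BM5 had 37 and 30, their basal-like counterparts BM2 and BM6 had 36 and 32, the Lats1-CKO luminal libraries BM3 and BM7 had 22 and 36, and the last group, BM4 and BM8, had 33 and 36. In percent, these were 55.2 and 44.8, 53.7 and 47.8, 32.8 and 53.7, and 49.3 and 53.7. The lowest library was BM3 and the 4 groups overlapped without it. Among all protein-coding genes the share was 57.7% in BM1, 50.9% in BM5, 55.9% in BM2, 52.6% in BM6, 34.6% in BM3, 59.3% in BM7, 57.2% in BM4 and 58.3% in BM8. The histone genes were lower in 8 of 8 libraries, by a mean of 4.43 percentage points ± 2.16 (SD, n = 8; exact two-sided sign-flip permutation test over libraries, p = 0.007812, the smallest that 8 libraries allow, adjusted p = 0.07812 over 10 tests). This difference, already at the smallest possible p, could pass the adjustment over 10 tests only alongside other low p-values. It did not pass, and its direction depended on which histone genes were counted. Reads were aligned uniquely by the authors, and 10 of the 67 genes had fewer than 50% of the 32-base words within 1 kb of their TSSs occurring once in the genome. All 10 had no peak. Among the other 57 genes the histone share was 4.14 percentage points above that of all protein-coding genes (exact sign-flip permutation test, p = 0.007812), where the other protein-coding genes were not filtered in the same way. In a sample of 1085 other protein-coding genes, 1025 had at least 50% of words occurring once. The median was 97.6% in that sample and 75.5% for the 67 histone genes.

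**Figure D1:**
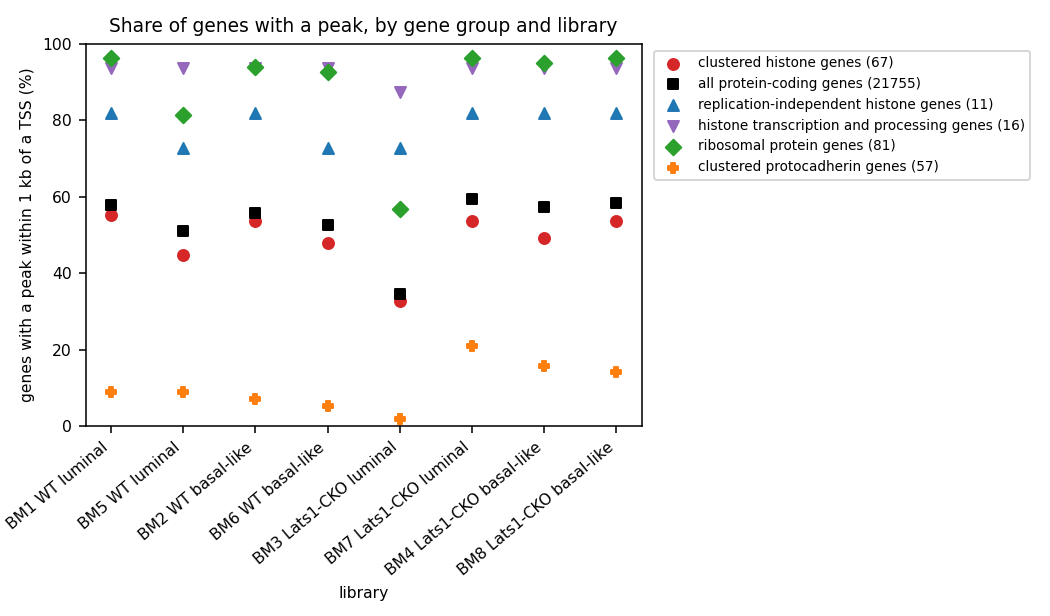
Percent of the genes of each group having a promoter peak, at most 1 kb from a TSS (y axis), in each of the 8 libraries (x axis), 1 point per gene group and library. The clustered histone genes (red circles, 22 to 37 of 67 genes) lie just under all protein-coding genes (black squares) in every library, under the ribosomal protein and replication-independent histone genes and above the protocadherins.

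Gene groups of other kinds set this share in context. The replication-independent histone genes, which encode the variants used outside S phase such as H2A.Z and H3.3, numbered 11, and 7 of them had a peak in all 8 libraries. The share of the clustered histone genes differed from theirs by -29.5 percentage points on average. It differed by -44.1 points from that of 16 genes for histone transcription and pre-mRNA processing, of which 14 had a peak in all 8 libraries, among them Npat, the coactivator of histone genes, with percentiles from 71.4 to 98.8, and Slbp, which encodes the stem-loop binding protein, with percentiles from 75.8 to 98.5. The difference was -39.7 points from 81 cytoplasmic ribosomal protein genes and +38.6 points from 57 clustered protocadherin genes, another family in tandem arrays, used mainly in neurons. Each of these differences had the same direction in 8 of 8 libraries (exact sign-flip permutation test, p = 0.007812 for each, adjusted over the 4 lists also 0.007812). They count all clustered histone genes, among them 24 in the long stretches without any peak described below. In those stretches the absence of a peak does not show closed chromatin. The 10 genes with under 50% of words occurring once are among these 24. No comparison with these lists was made without the 24 genes, so the sizes of the differences depend on them.

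The histone genes fell into genes with a peak throughout, genes without any peak and a smaller class between. A peak was found in all 8 libraries for 20 genes (29.9%), in none for 29 (43.3%) and in some for 18 (26.9%), and over all protein-coding genes the shares were 32.5%, 33.0% and 34.4%. Of the 18 genes found in some libraries, 11 were found in 7. Without BM3, 29 of 67 genes (43.3%) had a peak in all 7 remaining libraries, against 44.3% of all protein-coding genes.

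**Figure D2:**
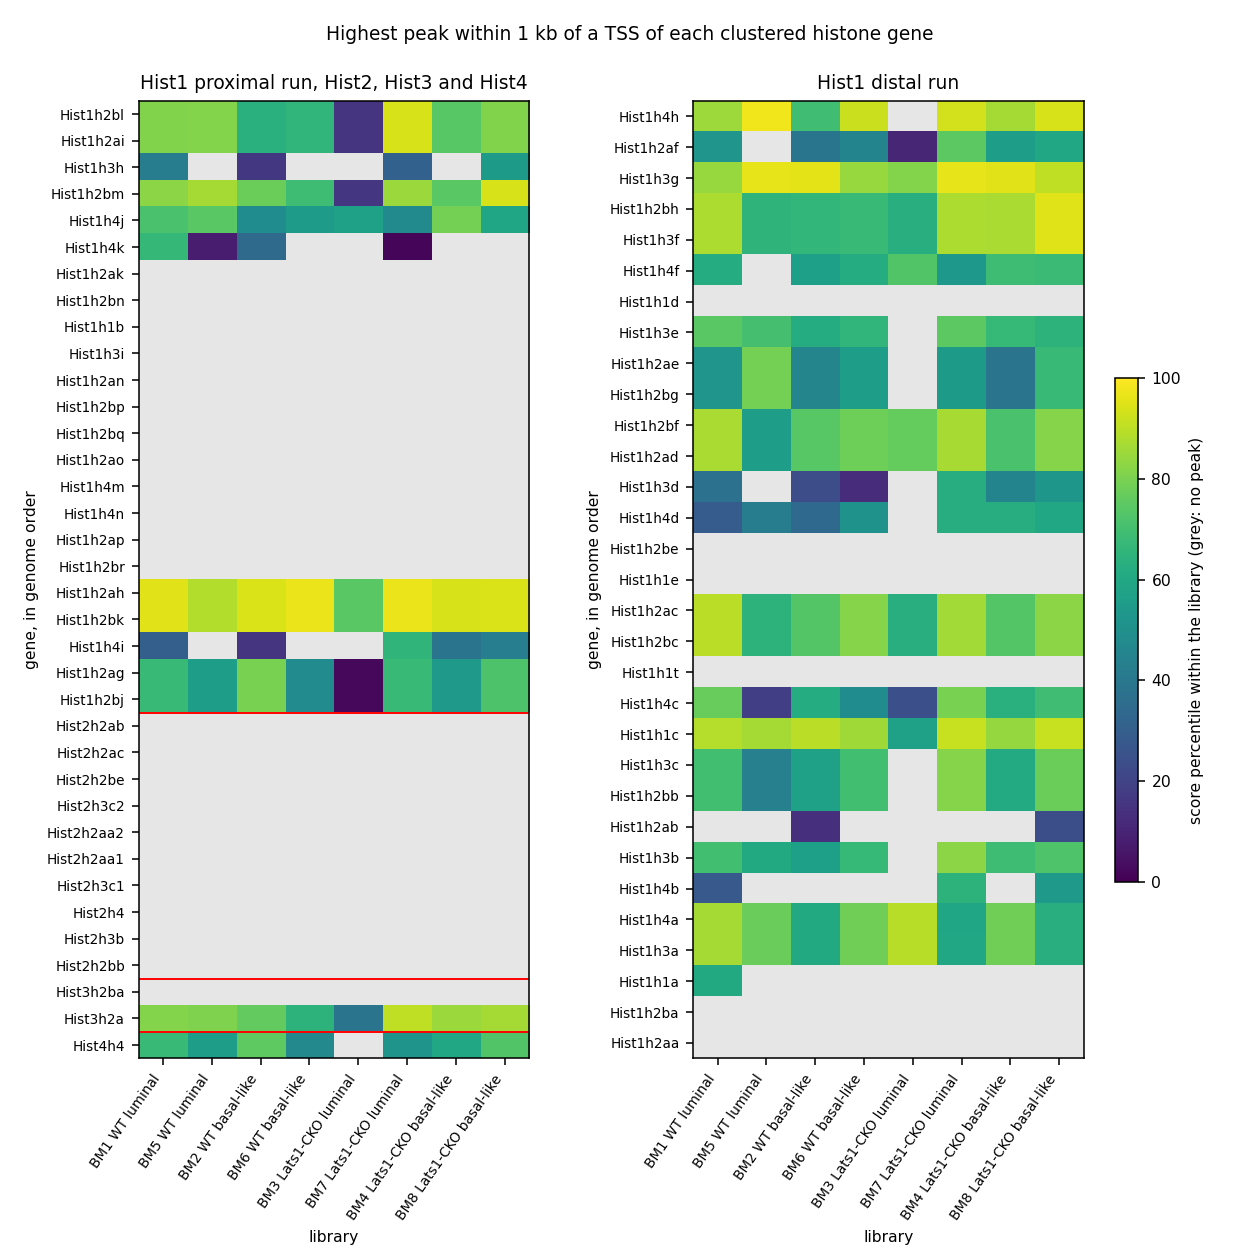
Score percentile (color, 0 to 100) of the highest peak within 1 kb of a TSS for each histone gene (rows, in genome order, red lines between clusters) in each library (columns), with grey for no peak. The grey blocks are the 12 neighbouring genes of the Hist1 proximal run, the 10 genes of the Hist2 cluster and scattered single genes, and BM3 has more grey cells than the other libraries in the distal run.

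The genes without a peak were not spread evenly. In the distal Hist1 run a peak was found in all 8 libraries for 11 of 31 genes and in none for 6. In the proximal run the counts were 8 and 12 of 23, and in the Hist2 cluster 0 and 10 of 10. The Hist2 genes Hist2h2ab, Hist2h2ac, Hist2h2be, Hist2h3c2, Hist2h2aa2, Hist2h2aa1, Hist2h3c1, Hist2h4, Hist2h3b and Hist2h2bb lie in a stretch of 113 kb (chr3:96178563-96291291) in which none of the 8 lists holds a peak of any kind, and which also takes in the 5′ ends of Sv2a and Bola1. The 12 genes of the proximal run, Hist1h2ak, Hist1h2bn, Hist1h1b, Hist1h3i, Hist1h2an, Hist1h2bp, Hist1h2bq, Hist1h2ao, Hist1h4m, Hist1h4n, Hist1h2ap and Hist1h2br, lie in a stretch of 100.2 kb without a peak (chr13:21750638-21850874). It was longer than 98.3% of the stretches between merged peaks genome-wide. A stretch of 53.6 kb (chr13:23598233-23651847) holds the annotated 5′ ends of Hist1h2be and Hist1h1e.

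These 3 stretches account for 24 of the 29 genes without a peak. Outside them 20 of 43 genes had a peak in all 8 libraries, 18 in some and 5 in none. Repeated sequence covered part of the stretches. The 10 genes with less than 50% of words occurring once all lie there, among them Hist1h2bq, Hist1h2ao, Hist1h2ap and Hist1h2br with 0% and Hist2h3c1 with 19.4%. Reads may be longer than these words, so a low share shows repeated sequence and not that no read could be placed. The other 14 genes of the stretches had 50% or more, for example Hist1h1b with 98.7%, Hist2h4 with 98.1% and Hist1h1e with 90.3%. The lists do not tell a promoter at which no peak was called from one whose peaks were removed with the blacklist or are otherwise not in the lists as used here, so the absence of a peak in these stretches does not show closed chromatin, and its cause was not tested.

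**Figure D3:**
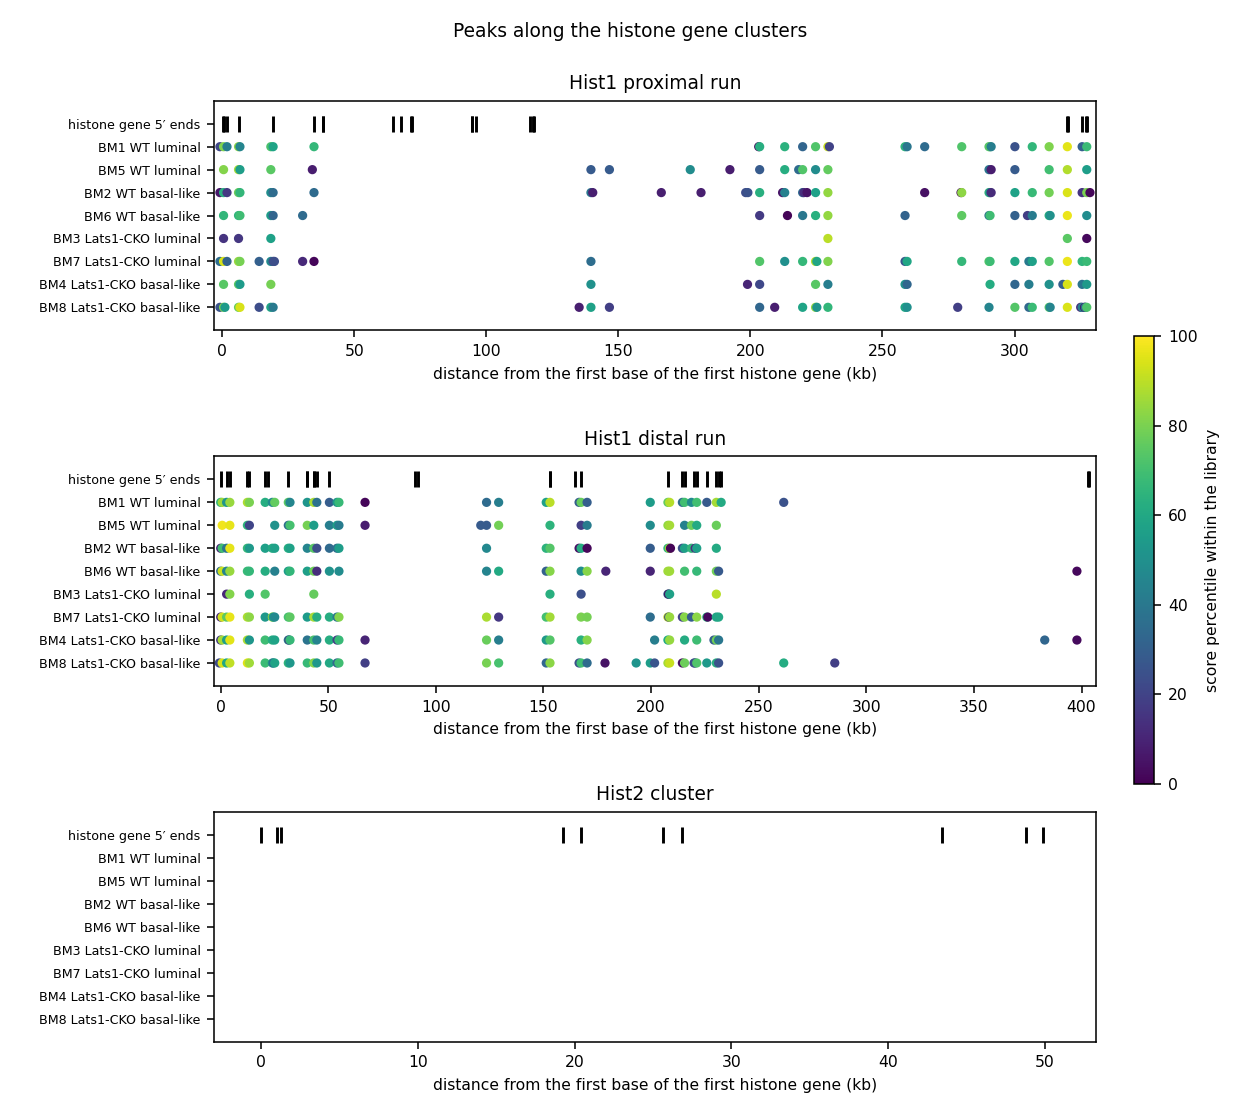
Peaks of each library (rows, points coloured by score percentile) along the 2 Hist1 runs and the Hist2 cluster, by distance in kb from the first base of the first histone gene (x axis), with the 5′ ends of histone genes as black ticks. Peaks stand under most ticks of the distal run, while the ticks inside the 100.2 kb stretch of the proximal run and all ticks of the Hist2 cluster have no peak in any row.

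The annotated TSS mattered for a few genes. Hist1h1d had no peak within 1 kb of its TSS, but a peak within 1 kb of its start codon in 6 libraries. Hist1h2be had one there in 7 libraries. Both have annotated 5′ ends far upstream of the coding sequence. The other genes without a peak had none at their start codons either. The remaining genes outside the 3 stretches were Hist3h2ba and the testis genes Hist1h1t, Hist1h2ba and Hist1h2aa, which encode histones of spermatogenic cells and had no peak in any library. Hist1h1t lies between genes with a peak in every library, Hist1h2bc and Hist1h4c, and 100.0% of its words occurred once.

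Linker histone genes had few promoter peaks. Of 6 H1 genes only Hist1h1c, which encodes the subtype H1.2, had a peak in all 8 libraries. Its percentiles were 88.8 and 86.3 in WT luminal, 89.5 and 85.8 in WT basal-like, 57.3 (BM3) and 91.7 in Lats1-CKO luminal, and 84.0 and 91.6 in Lats1-CKO basal-like cells. The groups overlapped and the low value was that of BM3. Except in BM6 and BM7, these values were of a region inside the gene that does not reach the TSS (chr13:23739432-23739885). The region over the TSS (chr13:23738721-23739005) had 76.1 and 83.3 in WT luminal and 66.1 and 85.8 in WT basal-like cells. It had 30.2 (BM3) and 91.7 in Lats1-CKO luminal and 60.4 and 86.1 in Lats1-CKO basal-like cells. Hist1h1a had a peak in BM1 alone, at the percentile 60.9. Hist1h1b, Hist1h1d, Hist1h1e and Hist1h1t had none by the TSS rule. Hist1h1b and Hist1h1e lie in the long stretches without a peak, where its absence does not show closed chromatin. Hist1h1d had a peak within 1 kb of its start codon in 6 libraries, and Hist1h1t is a testis gene. The low count therefore need not be a trait of H1 genes.

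The highest levels belonged to core histone genes of Hist1. Ranked by the lowest of their 8 percentiles, the first was the H3 gene Hist1h3g, with 84.5 and 96.5 in WT luminal, 96.1 and 84.6 in WT basal-like, 81.6 and 96.2 in Lats1-CKO luminal, and 95.7 and 90.3 in Lats1-CKO basal-like cells. Its groups overlapped throughout. The pair Hist1h2ah and Hist1h2bk, which share one peak, followed with 95.6 and 88.4 in WT luminal, 94.4 and 97.0 in WT basal-like, 74.3 and 97.2 in Lats1-CKO luminal, and 94.1 and 94.3 in Lats1-CKO basal-like cells. Here too the lowest value was that of BM3 and the groups overlapped. The pairs Hist1h2ac and Hist1h2bc, and Hist1h2bh and Hist1h3f, were tied with a lowest percentile of 62.9, each in BM3. For Hist1h2bh and Hist1h3f this value was of a region inside Hist1h3f that covers neither TSS (chr13:23544267-23544533). The region over the Hist1h2bh TSS (chr13:23543293-23543658) held no peak of BM3, and no library had a peak over the Hist1h3f TSS. The first pair ranged up to 89.8 with a median of 77.6, and the second up to 95.2 with a median of 77.3.

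The 13 H4 genes encode one protein and differed among themselves in their peaks. A peak was found in all 8 libraries for 3 of them, Hist1h4a, Hist1h4c and Hist1h4j, in some for 7 and in none for 3, Hist1h4m, Hist1h4n and Hist2h4. Hist1h4h reached 97.7 in BM5 and had no peak in BM3. That value was of a region beyond the end of the gene (chr13:23531668-23531854), and the region over its TSS (chr13:23530944-23531191) held no peak of BM5. Hist1h4j kept between 47.6 and 79.0 in all libraries, in a region upstream that does not reach its TSS (chr13:21734006-21734403). The region over its TSS (chr13:21734953-21735181) was found in 5 libraries, and not in BM3, BM4 or BM5. Hist1h4k was at 66.8 in BM1, 34.6 in BM2, 8.20 in BM5 and 1.23 in BM7, and had no peak in the other libraries. The isolated gene Hist4h4 had a peak in every library but BM3, with 67.4 and 55.5 in WT luminal, 75.3 and 47.1 in WT basal-like, 51.8 in BM7, and 59.6 and 72.9 in Lats1-CKO basal-like cells. By type, the number of genes with a peak ranged over the 8 libraries from 1 to 2 of 6 for H1, 7 to 9 of 18 for H2A, 7 to 9 of 18 for H2B, 3 to 8 of 12 for H3 and 4 to 10 of 13 for H4, and the lowest count of the H2B, H3 and H4 genes was that of BM3.

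Outside Hist1, Hist3h2a was the gene with a peak in all 8 libraries. Its percentiles were 81.6 and 80.7 in WT luminal, 76.1 and 64.5 in WT basal-like, 38.6 and 90.5 in Lats1-CKO luminal, and 85.0 and 86.4 in Lats1-CKO basal-like cells. The Lats1-CKO values were above all WT values except in BM3, which had the lowest value of all 8. Its peak also lies within 1 kb of a TSS of the neighbouring Trim17, and the values of both genes are from the same peak. Its partner Hist3h2ba, an H2B gene in the same pair, had no peak in any library. The Hist3h2a window (chr11:58954435-58954734, plus strand) is printed because it combines 2 CCAAT strings with 1 octamer.
Hist3h2a: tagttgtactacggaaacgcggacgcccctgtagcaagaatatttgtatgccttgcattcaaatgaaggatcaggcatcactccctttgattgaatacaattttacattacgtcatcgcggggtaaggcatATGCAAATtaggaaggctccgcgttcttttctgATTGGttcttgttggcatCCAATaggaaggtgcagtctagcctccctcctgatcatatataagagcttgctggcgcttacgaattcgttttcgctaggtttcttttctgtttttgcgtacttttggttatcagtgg

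Genes in head-to-head pairs had, with few exceptions, a peak in every library or in none. Of 12 H2A and H2B pairs with TSSs 176 to 306 bp apart (median 259.5), 5 had a peak between the TSSs in all 8 libraries, 6 in none, and Hist1h2ae with Hist1h2bg in 7. A pair of an H2B and an H3 gene, Hist1h2bh and Hist1h3f, stood 660 bp apart and had a peak between the TSSs in every library but BM3. In BM3 their peak within 1 kb lay inside Hist1h3f. Of the 26 genes in pairs, 12 had a peak within 1 kb in all 8 libraries, 12 in none and 2 in some. Of the 41 other genes the counts were 8, 17 and 16. The 6 pairs without a peak were the testis pair Hist1h2ba and Hist1h2aa and pairs inside the long stretches without a peak described above. In those stretches the absence of a peak does not show closed chromatin, and the part of pairing in these counts was not tested. The 2 genes of a pair share their peak and are not separate measurements.

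The 3 H2A and H2B pairs with the shortest distances show the range from an almost constant peak to none. They are Hist1h2ae and Hist1h2bg (176 bp, chr13:23571221-23571395), Hist1h2bf and Hist1h2ad (185 bp, chr13:23574197-23574380) and Hist1h2ap and Hist1h2br (236 bp, chr13:21833508-21833742), each printed on the plus strand from the first base after one TSS to the last base before the other, with the strings in capitals. The pair Hist1h2ac and Hist1h2bc (251 bp, chr13:23683949-23684198) is added as one whose peak covered both TSSs in 8 of 8 libraries.
Hist1h2ae to Hist1h2bg: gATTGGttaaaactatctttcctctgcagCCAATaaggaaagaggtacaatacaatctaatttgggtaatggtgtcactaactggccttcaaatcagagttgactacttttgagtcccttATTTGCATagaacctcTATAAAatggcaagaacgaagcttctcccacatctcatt
Hist1h2bf to Hist1h2ad: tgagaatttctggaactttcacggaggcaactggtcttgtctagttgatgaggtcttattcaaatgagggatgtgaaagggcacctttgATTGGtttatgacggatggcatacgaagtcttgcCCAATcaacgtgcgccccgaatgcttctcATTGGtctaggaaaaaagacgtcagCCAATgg
Hist1h2ap to Hist1h2br: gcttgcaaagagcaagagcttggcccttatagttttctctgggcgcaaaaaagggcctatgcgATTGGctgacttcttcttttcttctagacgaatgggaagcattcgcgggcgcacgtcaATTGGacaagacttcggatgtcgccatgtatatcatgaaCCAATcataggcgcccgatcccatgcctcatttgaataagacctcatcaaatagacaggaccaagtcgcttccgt
Hist1h2ac to Hist1h2bc: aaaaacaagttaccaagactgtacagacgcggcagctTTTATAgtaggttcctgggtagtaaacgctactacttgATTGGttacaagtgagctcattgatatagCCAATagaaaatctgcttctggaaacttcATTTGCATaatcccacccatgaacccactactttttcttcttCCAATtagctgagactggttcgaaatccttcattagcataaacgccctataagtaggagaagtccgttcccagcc
Between Hist1h2ae and Hist1h2bg the percentiles were 52.0 and 79.0 in WT luminal, 45.4 and 56.2 in WT basal-like, 54.7 in BM7 with no peak in BM3, and 38.6 and 67.5 in Lats1-CKO basal-like cells. Between Hist1h2bf and Hist1h2ad they were 87.5 and 55.5, 74.0 and 77.7, 76.3 and 86.9, and 71.4 and 81.9 in the same order of groups. Here BM5, not BM3, was the lowest library. Hist1h2ap and Hist1h2br had no peak, and 0% of the words around their TSSs occurred once. The first sequence holds 2 CCAAT strings, a TATAAA string and an octamer, the second 4 CCAAT strings, the third 3 CCAAT strings, and the fourth 3 CCAAT strings, a TATAAA string and an octamer.

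Peaks at histone genes lay mostly upstream of the gene. Over the 67 genes, coverage by peaks was highest upstream of the 5′ end in every library, at offsets of -73, -23, -124, -101, -116, -86, -58 and -78 bp in BM1 to BM8. Over all protein-coding genes it was highest at -21 to -42 bp. In 8 of 8 libraries the histone offset was farther upstream, though by a few bases in BM2. At its highest the histone coverage was 50.7% of genes in BM1 and BM7 and 22.4% in BM3, against 40.1%, 39.2% and 20.4% of all protein-coding genes. In BM5 the 2 were nearly equal, 28.4% and 28.0%. A peak between the genes of a head-to-head pair was counted as upstream of both. At 500 bp downstream it was 0% to 5.97% for the histone genes and 1.51% to 6.64% for all. The highest peaks at histone genes had a median width of 176.5 to 317 bp per library, and those at protein-coding genes 182 to 279 bp.

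**Figure D4:**
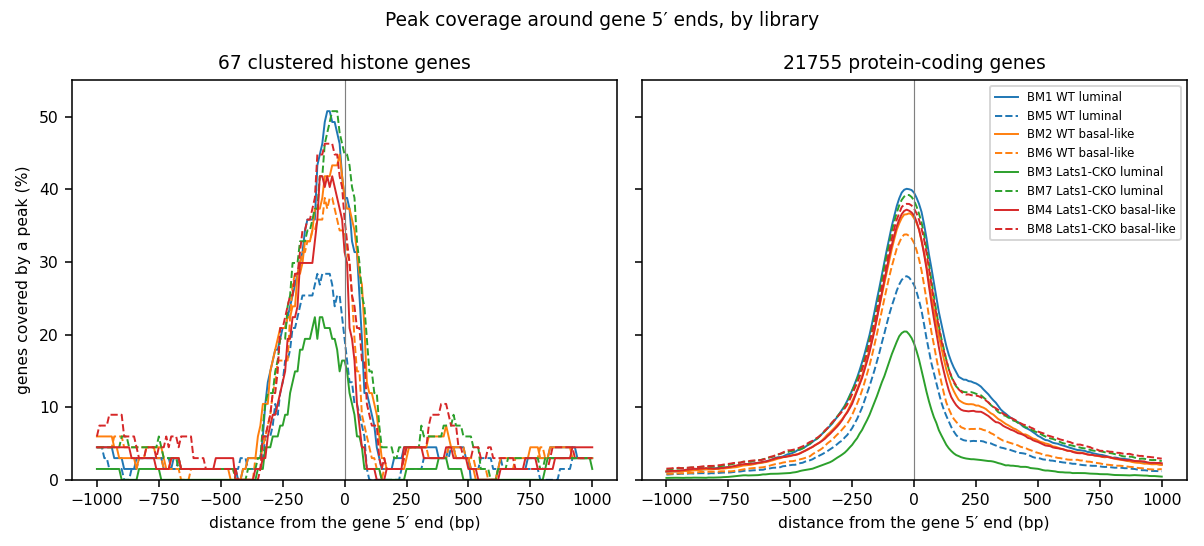
Percent of genes covered by a peak (y axis) by distance from the gene 5′ end in bp (x axis, negative is upstream), for the 67 clustered histone genes and for 21755 protein-coding genes, 1 line per library. The histone lines rise higher, though in BM5 only to 28.4% against 28.0%. They lie to the left of 0 and fall to near the baseline within 250 bp downstream. The lines of all genes have a shoulder there.

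Over the 5 stretches the peaks of the 8 libraries merged into 117 regions. Of these, 50 lay within 1 kb of a histone TSS and 67 elsewhere. The regions near a histone TSS were found in a median of 7 libraries, and 14 of them in all 8. The regions elsewhere were found in a median of 2 libraries, and 1 of them in all 8. That region, chr13:21944826-21945378, lies at the zinc finger gene Zfp184. Of 11 other protein-coding genes inside the clusters, Trim17 and Zfp184 had a promoter peak in 8 libraries, Prss16 in 7, Pom121l2 in 2, and Hfe and Slc17a4 in 1. The other 5 had none in any library, among them the sodium phosphate transporter genes Slc17a1, Slc17a2 and Slc17a3. Peaks in the stretches numbered 68 and 50 in WT luminal, 72 and 56 in WT basal-like, 18 and 68 in Lats1-CKO luminal, and 59 and 78 in Lats1-CKO basal-like cells. Per 10000 peaks of the library these were 9.36 and 8.51, 10.2 and 10.9, 12.2 and 7.28, and 6.84 and 7.88, where BM3 had the highest value.

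The comparison of genotypes asked whether loss of Lats1 goes with a change at these promoters, and no difference passed a test. The share of histone genes with a peak was 47.4% ± 9.93 (SD, n = 4) in Lats1-CKO and 50.4% ± 4.93 (n = 4) in WT libraries, a difference of -2.99 percentage points (exact two-sided permutation test over 70 assignments, p = 0.8). Relative to all protein-coding genes of the same library the difference was -1.06 points (exact permutation test, p = 0.571). The median percentile over the 67 genes was 25.1 ± 29.1 in Lats1-CKO and 13.4 ± 17.7 in WT libraries (SD, n = 4 and 4, exact permutation test, p = 0.657). Since 30 or more of the 67 genes had no peak in each library, this median was 0 in several libraries and is a coarse measure. Peaks in the clusters per 10000 differed by -1.19 (p = 0.4, exact permutation test). With 4 against 4 libraries the smallest possible p is 0.0286. Without BM3 the difference in share was +1.87 points, that relative to all protein-coding genes -2.11 points, and that in the median percentile 20.1. The difference in cluster peaks was then -2.41 per 10000 (exact permutation test of 3 against 4 libraries, p = 0.0571), the smallest p of these genotype tests.

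Gene by gene, none of the 38 histone genes with a peak in at least 1 library had percentiles higher in all 4 Lats1-CKO than in all 4 WT libraries, and none had lower ones. Over all 14571 protein-coding genes with a peak, 0.398% were higher and 0.721% lower. BM3 decided this count. Without it 5 of 38 histone genes (13.2%) were higher in the 3 remaining Lats1-CKO libraries than in all 4 WT libraries, against 10.3% of all genes, a share near the background. None was lower, against 0.79%. The 5 genes were Hist3h2a, Hist1h4i, Hist1h2af, Hist1h3d and Hist1h4d.

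These 5 genes had low or absent peaks in BM3, and their values are given as a description. Hist1h4d, an H4 gene, had 29.0 and 42.5 in WT luminal and 34.1 and 51.0 in WT basal-like cells, against 62.3 in BM7 and BM4 and 60.0 in BM8, with no peak in BM3. Hist1h4i had 30.3 and 0, and 15.1 and 0, against 65.4, 38.6 and 42.7, with no peak in BM3. Hist1h3d, an H3 gene, had 37.3 and 0, and 23.8 and 12.7, against 62.3, 45.1 and 53.0, with no peak in BM3. Hist1h2af, an H2A gene, had 52.0 and 0, and 38.8 and 45.1, against 75.0, 56.0 and 59.6, with 10.6 in BM3. The 3 Lats1-CKO libraries other than BM3 also had the highest numbers of peaks of all 8, from 86279 to 93467 and 99022, and the part of this in the differences was not tested. The promoter of Hist1h4d (chr13:23581348-23581647, plus strand) is printed as an example with a peak in all WT libraries, which Hist3h2a, printed before, had as well.
Hist1h4d: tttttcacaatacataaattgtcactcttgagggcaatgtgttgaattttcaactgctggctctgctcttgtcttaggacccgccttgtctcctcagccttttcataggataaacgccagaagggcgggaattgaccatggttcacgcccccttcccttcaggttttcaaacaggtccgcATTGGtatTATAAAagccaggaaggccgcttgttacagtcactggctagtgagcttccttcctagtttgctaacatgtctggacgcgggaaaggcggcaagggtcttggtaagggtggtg
It holds 1 CCAAT and 1 TATAAA string.

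Between the sorted populations no difference passed a test over all peaks either. The share of histone genes with a peak was 51.1% ± 3.08 (SD, n = 4) in basal-like and 46.6% ± 10.3 (n = 4) in luminal libraries, a difference of +4.48 points (exact permutation test, p = 0.543), which was -0.124 without BM3. Relative to all protein-coding genes it was -0.858 points (exact permutation test, p = 0.629). The median percentile was 17.3 ± 25.0 in basal-like and 21.2 ± 24.9 in luminal libraries (SD, n = 4 and 4, exact permutation test, p = 1.0). Peaks in the clusters per 10000 differed by -0.382 (exact permutation test, p = 0.8). When BM3 was left out, the difference relative to all protein-coding genes was -0.121 points, that in the median percentile -10.9 and that in cluster peaks +0.574 per 10000. None of the 38 genes was higher in all 4 basal-like than in all 4 luminal libraries (0.727% of all genes) and none lower (0.206%). Without BM3 the counts were 0, against 0.728%, and 1 (2.63%), Hist1h3e, against 2.88%. Hist1h3e, an H3 gene, had 74.4 and 70.3 in WT luminal and 74.9 in BM7, against 61.9, 65.8, 66.9 and 64.5 in the basal-like libraries, and no peak in BM3. In BM4, BM5, BM6 and BM7 these values were of a region upstream that does not reach the TSS (chr13:23563108-23563432). In the region over the TSS (chr13:23562292-23562665) BM5 had 35.5, below all 4 basal-like libraries, the lowest being BM4 with 45.5. BM1 and BM7 lay above all 4 there, so the populations overlapped at the TSS.

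When the same number of peaks was taken from each library, more histone genes were found in luminal than in basal-like cells. Among the 14000 highest-scoring peaks, 17 and 13 of 67 histone genes had a peak in WT luminal, 4 and 11 in WT basal-like, 20 and 15 in Lats1-CKO luminal, and 8 and 9 in Lats1-CKO basal-like cells. All 4 luminal libraries lay above all 4 basal-like ones, also with BM3 left aside. The difference in share was -12.3 percentage points in basal-like cells (exact two-sided permutation test, p = 0.0286, the smallest possible), and -9.39 points relative to all protein-coding genes (exact permutation test, p = 0.0286), whose share ranged from 26.5% to 34.0% in luminal and from 25.3% to 31.2% in basal-like libraries. No adjustment was made for this being 1 of several settings. Among the peaks above the median score of each library, another way to keep the high scores, the difference in share had the opposite sign, +4.10 points (exact permutation test, p = 0.657), and that relative to all protein-coding genes was -1.22 points (exact permutation test, p = 0.457). In BM3 the 14000 peaks are nearly the whole list of 14753. The genes that appeared in this set in all 8 libraries were Hist1h2ah, Hist1h2bk, Hist1h3g and Hist1h1c. The pair Hist1h2bl and Hist1h2ai was in it in 4 of 4 luminal and 0 of 4 basal-like libraries, with percentiles within the set of 1.13, 21.3, 10.3 and 58.7 in BM1, BM5, BM3 and BM7. They were 2 of 23 histone genes (8.7%) in the set that were lower in all basal-like libraries, against 1.61% of 9814 protein-coding genes, and both rest on 1 peak. None was higher, against 0.346%. Over all peaks the same pair had overlapping percentiles, 81.0, 81.3, 14.9 and 93.8 in the luminal libraries and 63.6, 65.8, 74.0 and 81.2 in the basal-like libraries. Markers of other cell types moved with the populations to some extent. The fibroblast marker Pdgfrb had a promoter peak in 4 of 4 basal-like libraries (22.3, 62.0, 89.9 and 49.7) and in 0 of 4 luminal libraries, and Col1a1 had one in 4 of 4 basal-like libraries and in 2 of 4 luminal ones. The immune marker Ptprc had a peak in BM8 alone and the endothelial marker Pecam1 in BM2, BM4, BM7 and BM8. The part of such cells in the histone result was not tested.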

How the data were processed

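The authors made 2 ATAC-seq libraries of each of 4 groups. Per the study's methods, adapters were trimmed with cutadapt, reads were aligned uniquely to mm10 with bowtie (Bowtie 1.0.0 in the submitters' processing notes), mitochondrial reads, duplicates (Picard 2.3.0) and long fragments were removed, and MACS2 peaks on the ENCODE blacklist were dropped. The submitters' notes give MACS2 2.1.1.20160309 and the methods name another release. The authors deposited 1 peak list per library with a score per peak, at least 13 in every library, taken from its values to be that of MACS2 and not normalized between libraries. It was therefore turned into a percentile among the peaks of its own library. Read counts are not in the lists, so depth is unknown and no counting interval is given. The methods state that 1 Lats1-CKO luminal replicate was discarded on quality control when replicates were merged, without naming it in the text, so either BM3 or BM7 did not pass it. All 8 libraries were kept.

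TSSs were those of all transcripts of protein-coding genes in GENCODE M21. A cluster is a run of histone genes less than 200 kb apart, widened by 1 kb. Words of 32 bases within 1 kb of a TSS were counted in GRCm38.p6 as occurring once or more often, for the histone genes and for every 20th other gene. Of 18 genes listed for histone transcription and processing 16 matched by symbol. Values per library were compared by exact two-sided permutation tests of 4 against 4 libraries (70 assignments) or sign flips over 8 libraries (256 patterns), with Benjamini-Hochberg adjustment over 10 tests. A difference was called at 0.05. The comparison with 4 other gene lists was tested after the data had been seen. Peak lookup and tests were tested on simulated data. Python 3.11.15, numpy 2.4.6, pandas 2.3.3 and scipy 1.17.1 were used.

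The genes, lists and settings were chosen with earlier results of these data known. Named were all H1, Hist2, Hist3 and Hist4 genes, the 5 genes with the highest lowest percentile (with ties), genes without a peak, genes whose percentiles did not overlap between 4 and 4 libraries, the 3 shortest H2A and H2B pairs, testis genes and examples from the comparison lists. Hist1h2bl, Hist1h2ai, the genes not overlapping without BM3 and the H4 genes were named after their values were seen. The alternatives were distances of 500 bp, 5 kb or the gene 5′ end alone, the start codon in place of the TSS, the 14000 highest-scoring peaks or peaks above the median score, genes with at least 50% of words occurring once, TSSs within 1 kb counted once, the mean over genes, clusters widened by 10 kb, bases in place of peaks, and each library left out in turn. The study's RNA-seq was not analysed here.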

Additional observations from a re-analysis of the deposited data

How the results depend on the processing

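No paired analysis was possible because the labels number no replicates and pair no libraries. The values below changed direction, side of the threshold or count under an alternative, and the causes were not tested except where the setting itself removes genes or libraries. The share of histone genes minus that of all protein-coding genes (-4.43 points) was -2.92 within 5 kb, +0.883 for the gene 5′ end alone, +4.14 for genes with at least 50% of words occurring once, and, in settings added after the data had been seen, +13.1 within 1 kb of a start codon, +2.94 with that word filter and TSSs within 1 kb counted once, and +4.17 with that filter and without BM3. It ranged from -4.81 to -3.93 when a library was left out. The median percentile minus that of all protein-coding genes (-12.3, exact sign-flip permutation test, p = 0.03125, adjusted p = 0.1562) became 2.78 within 5 kb, 8.24 for the 5′ end alone, 0 for the 14000 highest-scoring peaks, 0.627 for peaks above the median score, 11.6 with the word filter, and, in the added settings in the same order, 28.4, 7.02 and 13.3. It ranged from -14.5 to -7.63 when a library was left out, and its unadjusted p rose to 0.0625 without any one of 6 libraries.

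The genotype difference in share (-2.99) was 2.61 with the 14000 highest-scoring peaks, 0.373 with peaks above the median score and 2.19 with the word filter and without BM3, and ranged from -5.10 to 1.87 with a library left out. Relative to all protein-coding genes (-1.06) it was 2.40 and 2.13 in the first 2 of these settings and ranged from -2.11 to -0.0626. The genotype difference in the median percentile (11.7) was -5.08 within 500 bp, -10.6 within 5 kb, -0.873 as a mean over genes and 0 with the 14000 peaks, and ranged from 2.46 to 20.1. In cluster peaks per 10000 (-1.19) it was 0.714 with the 14000 peaks and ranged from -2.41 to -0.621. The population difference in share (4.48) was -12.3 with the 14000 peaks and -0.146 with the word filter and without BM3, and ranged from -0.124 to 7.34. Relative to all protein-coding genes (-0.858) it was 0.465 within 500 bp, -9.39 with the 14000 peaks, 0.548 at start codons and 0.643 with the word filter and shared TSSs, and ranged from -1.77 to 0.168. In the median percentile (-3.87) it was 13.7 within 5 kb, 1.45 above the median score, 17.3 with the word filter, 3.21 as a mean, 0 with the 14000 peaks, and 6.51, 18.6 and 5.80 in the added settings, and ranged from -15.8 to 4.92. In cluster peaks (-0.382) it was -3.93 with the 14000 peaks and ranged from -1.07 to 0.574. None of these genotype and population differences passed the threshold except the 3 population differences with the 14000 peaks. Counts of genes not overlapping were 0 in each direction over all libraries. With a library left out they ranged from 0 to 5 for higher and 0 to 1 for lower in Lats1-CKO, and from 0 to 0 for higher and 0 to 1 for lower in basal-like. They were 2 lower in basal-like with the 14000 peaks, and 5 higher in Lats1-CKO and 1 lower in basal-like with the word filter and without BM3.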

Other observations

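Of the 81 ribosomal protein genes, 3 had no peak in any library and 43 had one in all 8. Of the replication-independent histone genes, H2afz had percentiles from 83.6 to 98.0 and H3f3b from 82.0 to 99.8, while H2afy2 had a peak in BM4 and BM5 alone and H1fx in 4 of 8 libraries.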
